A study of Mus musculus with 4 samples.

Results

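The genes described here encode the glutamate receptors of the mouse dentate gyrus, the auxiliary subunits that travel with them and the scaffold proteins that hold them at the postsynaptic membrane. The list was defined by gene family, with earlier results of these data known. It names 42 genes, of which 40 were measured, out of 18010 genes measured in all. They are 4 AMPA receptor subunits, 5 kainate receptor subunits, 6 NMDA receptor subunits, 6 metabotropic receptors, 9 auxiliary subunits, 4 MAGUK scaffolds and 6 members of the SHANK and SAPAP scaffold families. The auxiliary subunit gene Cacng3 and the scaffold gene Shank1 were not analysed here, since Cacng3 was listed with no probeset and no transcript carried the symbol Shank1.

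Expression was measured on 4 exon arrays of dentate gyrus that had been microdissected from whole hippocampus. There were 2 arrays, called ECS 1 and ECS 2, from mice 4 h after electroconvulsive stimulation, an electrical stimulus of 1.0 s given as 0.3 ms pulses of 18 mA at 100 Hz, which induces a seizure. There were 2 further arrays, sham 1 and sham 2, from mice 4 h after sham treatment. Mice of both groups were wild-type C57/Black6 males, 8 weeks old. Arrays are labelled as biological replicates, but it is not stated if each was made from 1 mouse or from pooled mice, so the p-values measure the spread between these arrays.

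Glutamate is the main excitatory transmitter of the hippocampus, and granule cells of the dentate gyrus receive it from the entorhinal cortex. AMPA and kainate receptors are ion channels that carry fast current. NMDA receptors admit calcium when glutamate binds while the membrane is depolarised, and metabotropic receptors act through G proteins. TARP and cornichon proteins accompany AMPA receptors, and Neto proteins accompany kainate receptors. At the postsynaptic density, MAGUK proteins bind receptors through PDZ domains, SAPAP proteins bind the guanylate kinase domain of MAGUK proteins, and SHANK proteins bind SAPAP and so form a deeper layer. Seizures are a known strong inducer of activity-regulated genes in granule cells.

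All values are deposited log2 expression values, each the mean over the exonic probesets of a transcript, and differences are ECS minus sham on that scale. The array medians over all genes were 7.26 on ECS 1 and 7.20 on ECS 2, against 7.25 on sham 1 and 7.35 on sham 2, and the median difference over all genes was -0.04. The correlation across genes between the arrays of a group was 0.993 for ECS and 0.993 for sham. The 7 measured granule cell markers had values on every array. Every measured gene did, so this does not check the identity of the tissue. Of these, 6 had a difference below 0, with the desmosomal gene Dsp lowest at -1.37, and the transcription factor gene Prox1 had 0.22.

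None of the 40 measured genes passed limma's test at an adjusted p under 0.05, where 0.694% of all genes passed. At an unadjusted p under 0.05 there were 5 of the 40, which is 12.5% against 16.9% of all genes: 2 were higher after ECS, Dlgap2 and Dlgap4 (6.39% of all genes were), and 3 were lower, Grik3, Grm3 and Grin3a (10.5% of all genes were). Grik3 alone was at least 1.5-fold apart, in the lower direction. Of all genes 3.01% were at least 1.5-fold apart, 1.52% higher and 1.49% lower. Both ECS arrays lay above both sham arrays for 7 genes, or 17.5%, against 18.7% of all genes. Both lay below for 11 genes, or 27.5%, against 30.7% of all genes, and the arrays overlapped for the other 22. In this fit of the deposited values these shares were all close to or below those of the array as a whole. Trend and robust moderation in limma gave 12 of the 40 an unadjusted p under 0.05, against 19.95% of all genes. After quantile normalization both ECS arrays lay below for 32.5%, against 26.4% of all genes, and above for 20%, against 23.6%. With arrays centred on their medians they lay below for 15%, against 20.3%, and above for 30%, against 28.8%. With 2 arrays against 2, an exact permutation test of a single gene cannot give a p below 0.333.

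The differences were also small in size. Of the 40 genes, 23 differed by less than 0.1, and the median difference was -0.05. The central part of the genes lay between -0.13 (25th percentile) and 0.04 (75th percentile), against -0.17 and 0.09 for all genes. The 40 genes were also brighter, with medians of 9.50 on ECS 1 and 9.46 on ECS 2, against 7.26 and 7.20 for all genes. Spread was not compared at equal brightness. For 37 genes the 95% interval of the difference, taken gene by gene without adjustment, lay within a 1.5-fold change in either direction, which is 0.58 on the log2 scale. The exceptions were Grik3, Grm3 and Dlgap4. How many of all genes differed by less than 0.1 or had such an interval was not counted. Since the tissue was profiled in bulk, fewer cells of a type and less RNA per cell cannot be told apart in any of these values.

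**Figure D1:**
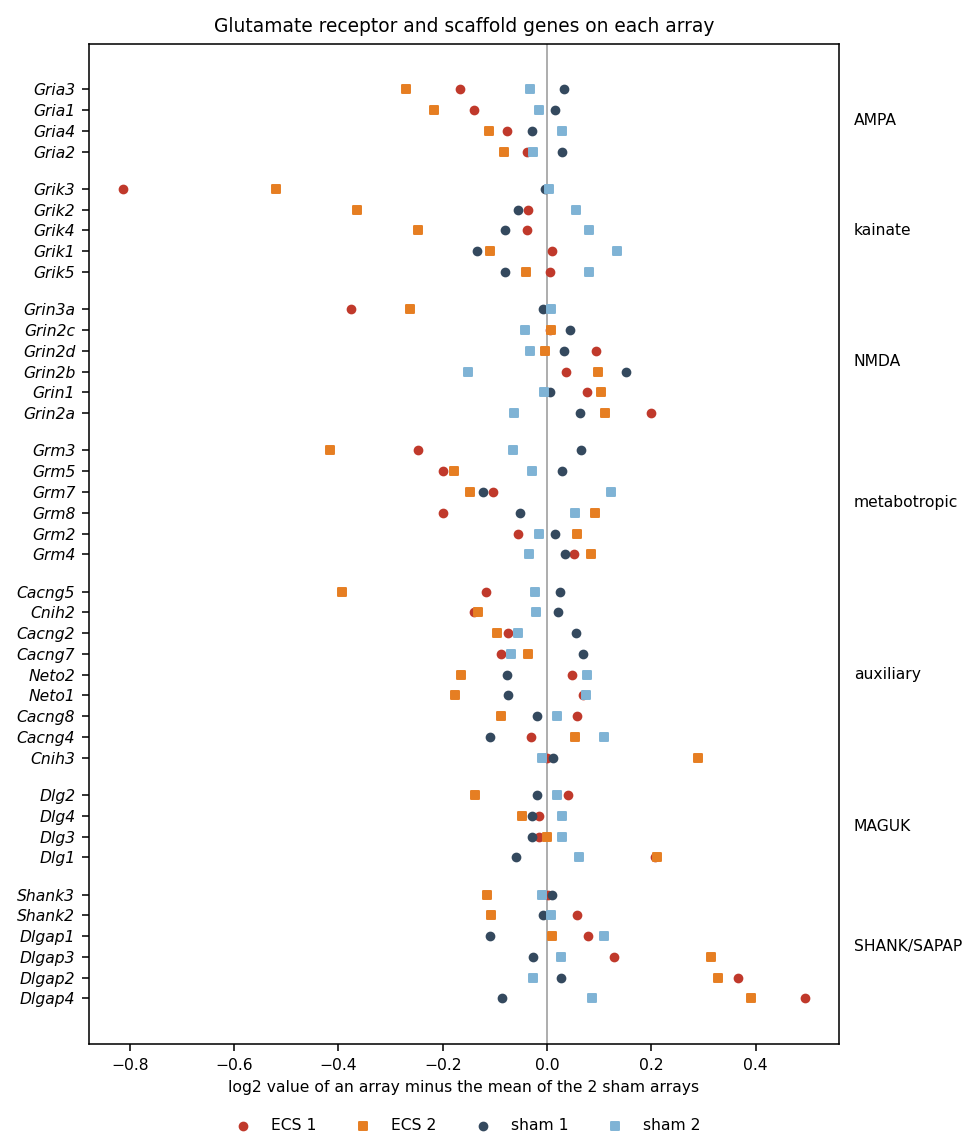
Values of the 40 measured genes on each array, as the log2 value minus the mean of the 2 sham arrays of the same gene (horizontal axis), grouped by family and ordered by difference within it. Points are single arrays; Grik3 lies farthest to the left, with ECS values 7.36 and 7.65, and Dlgap4 farthest to the right, with 9.08 and 8.98.

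**Figure D2:**
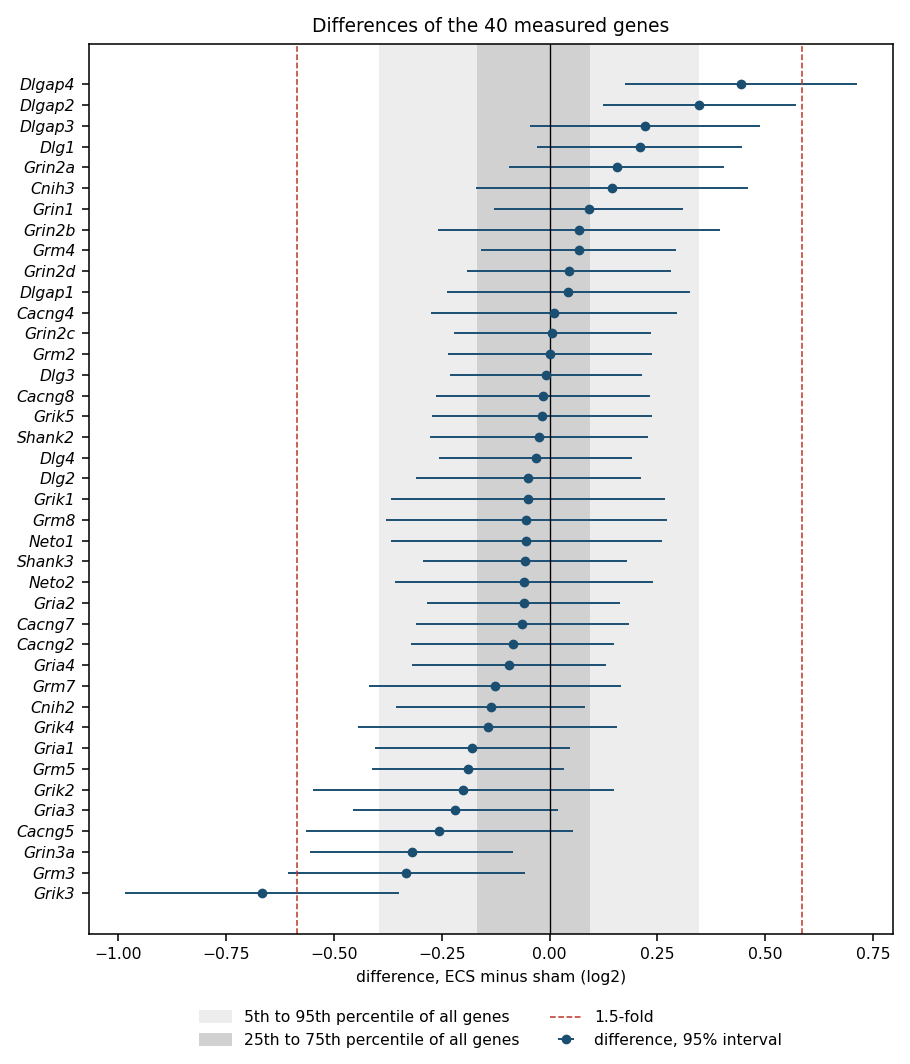
Difference of each gene, ECS minus sham, in log2 units (horizontal axis), with its 95% interval from limma's moderated standard error as a line. The shaded bands hold the 25th to 75th and the 5th to 95th percentile of all 18010 genes (the wider band runs from -0.39 to 0.34), and dashed lines mark 1.5-fold; the intervals of Grik3, Grm3 and Dlgap4 reach beyond a dashed line.

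The AMPA receptor subunits form the channel that carries most fast excitatory current. Gria3 had 10.71 and 10.60 on the ECS arrays, against 10.91 and 10.84 on the sham arrays. Gria1, whose product is delivered to synapses during potentiation, had 11.63 and 11.55 after ECS, against 11.78 and 11.75 after sham. In both genes the ECS arrays lay below the sham arrays, and the differences of -0.22 ± 0.09 and -0.18 ± 0.09 (moderated SE, n = 2 each) did not pass limma's test (adjusted p = 0.323 and 0.380).

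Gria4 had 9.41 and 9.38 after ECS, against 9.46 and 9.52 after sham. Gria2, which encodes the subunit whose edited form keeps calcium out of the channel, had 12.21 and 12.16 after ECS, against 12.27 and 12.22 after sham, with a difference of -0.06 ± 0.09 (adjusted p = 0.775). All 4 AMPA subunits therefore had both ECS arrays below both sham arrays, with differences between -0.22 and -0.06, where 30.7% of all genes did. With each array centred on its median, 3 of the 4 stayed below 0, 2 of them without overlap (20.3% of all genes), and Gria2 turned to 0.012. After quantile normalization all 4 kept both ECS arrays below both sham arrays (26.4% of all genes).

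Kainate receptors are presynaptic and postsynaptic channels, and in the hippocampus they are best known at the mossy fibre synapses that granule cells make. Grik3, the gene of a low-affinity kainate subunit, read 7.36 on ECS 1 and 7.65 on ECS 2, against 8.17 on sham 1 and 8.18 on sham 2. Both ECS arrays lay well below both sham arrays, which were nearly equal to each other, and ECS 1 was the lowest of the 4. The difference was -0.67 ± 0.12 (95% interval -0.98 to -0.35), a 1.59-fold lower level, and it did not pass limma's test (adjusted p = 0.104). It was the largest difference in size among the 40 genes. Grik3 passed without the dimmest 25% of genes (adjusted p = 0.0482) and with trend and robust moderation (adjusted p = 0.0307). These settings called 458 of 13507 genes and 717 of 18010, against 125 of 18010 in the main fit. Without ECS 1 the difference of Grik3 was -0.52, below 1.5-fold, and no gene of the 40 then reached that size.

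The promoter of Grik3, the gene with the lowest difference in the list, is given here from the RefSeq table of GRCm38.p6 with 250 bases before and 50 after the annotated start, at chr4:125490446-125490745 on the plus strand. It is shown for comparison with that of Dlgap4, at the opposite end of the list, and holds none of the motifs searched for, so it has no capitals.
Grik3: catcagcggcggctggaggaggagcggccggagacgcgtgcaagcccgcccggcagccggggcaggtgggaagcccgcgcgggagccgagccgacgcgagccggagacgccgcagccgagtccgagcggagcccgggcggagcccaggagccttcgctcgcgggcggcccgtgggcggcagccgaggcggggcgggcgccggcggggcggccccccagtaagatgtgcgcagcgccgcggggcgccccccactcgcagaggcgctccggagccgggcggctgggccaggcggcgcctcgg

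The other kainate subunits showed less. Grik2, a widespread subunit of low-affinity kainate receptors, had 9.02 and 8.69 after ECS, against 9.003 and 9.11 after sham. Only ECS 2 stood apart there, ECS 1 lay between the sham arrays, and the difference of -0.20 ± 0.14 (adjusted p = 0.512) shrank to -0.036 without ECS 2. Grik4, a high-affinity subunit of mossy fibre synapses, had 9.99 and 9.78 after ECS, against 9.95 and 10.11 after sham (adjusted p = 0.590). Grik1 and the high-affinity subunit gene Grik5 also had overlapping arrays, with differences of -0.05 and -0.02. All 5 kainate genes had a value below 0, but 2 of the 5 lay above 0 with arrays centred on their medians and 1 after quantile normalization. Of all 18010 genes, 57.9% were below 0 as deposited, and 7651 with centred arrays, which bears on each such count here. Both ECS arrays lay below both sham arrays in 1 of the 5 kainate genes as deposited (30.7% of all genes). After quantile normalization they did in 3 of the 5 (26.4% of all genes). With centred arrays they lay below in 1 (20.3% of all genes) and above in 1 (28.8%).

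NMDA receptors combine the obligatory Grin1 subunit with Grin2 or Grin3 subunits. Grin3a encodes a subunit that lowers calcium entry and is most abundant in young brain. It read 7.92 and 8.04 on the ECS arrays, against 8.29 and 8.31 on the sham arrays. The sham arrays agreed closely and both ECS arrays lay below them, with a difference of -0.32 ± 0.09 (95% interval -0.56 to -0.08) that did not pass limma's test (adjusted p = 0.200).

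Grin2a and Grin2b encode the regulatory subunits that dominate in adult and in early postnatal forebrain. Grin2a had 11.32 and 11.23 after ECS, against 11.18 and 11.06 after sham, with no overlap and a difference of 0.16 ± 0.10 (adjusted p = 0.479). Grin2b had 10.57 and 10.64 after ECS, against 10.69 and 10.39 after sham. The Grin2b arrays overlapped, and its difference of 0.07 ± 0.13 (adjusted p = 0.832) turned to -0.08 without sham 2. Grin1 had 11.08 and 11.11 after ECS, against 11.01 and 10.999 after sham, which did not overlap but amounted to 0.09 ± 0.09 (adjusted p = 0.643). Grin2c and Grin2d, whose products prevail in cerebellum and in midline and interneuron populations, had 0.01 and 0.04. Grin3a was thus the only one of the 6 NMDA genes below 0, as deposited and under both other scalings.

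The metabotropic receptors were mixed. Grm3, a receptor that lowers cyclic AMP and is found on astrocytes as well as on neurons, read 9.10 and 8.94 after ECS, against 9.42 and 9.29 after sham. All ECS values lay below all sham values, with a difference of -0.33 ± 0.11 (95% interval -0.61 to -0.06) that did not pass limma's test (adjusted p = 0.231). Grm5, which couples to phospholipase C and is tied to the postsynaptic density through Homer proteins, had 11.25 and 11.27 after ECS, against 11.48 and 11.42 after sham. The arrays did not overlap either, and the difference was -0.19 ± 0.09 (adjusted p = 0.352).

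Grm2, a group II receptor like Grm3 and a presynaptic receptor of mossy fibres, had 9.40 and 9.52 after ECS, against 9.47 and 9.44 after sham. Its arrays interleaved and its difference was 0.00 (adjusted p = 0.995). The presynaptic receptors Grm7, Grm8 and Grm4 had -0.13, -0.05 and 0.07. In Grm4 both ECS arrays, at 6.57 and 6.60, lay above the sham arrays at 6.55 and 6.48 (adjusted p = 0.747). As deposited 4 of the 6 metabotropic genes were below 0, against 3 of 6 under both other scalings.

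Among auxiliary subunits, Cacng5, which encodes an atypical TARP, had 7.45 and 7.18 after ECS, against 7.59 and 7.55 after sham. Both ECS arrays were lower, ECS 2 by most, and the difference was -0.26 ± 0.12 (adjusted p = 0.362), or -0.12 without ECS 2. Cnih2, a cornichon that slows AMPA receptor closure, had 10.67 and 10.68 after ECS, against 10.83 and 10.79 after sham, a difference of -0.14 (adjusted p = 0.479) without overlap. Its relative Cnih3 had 9.14 and 9.43 after ECS, against 9.15 and 9.13 after sham. The Cnih3 difference of 0.15 ± 0.12 (adjusted p = 0.605) came from ECS 2, and without that array it was 0.00.

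Cacng2, the gene of stargazin, the first TARP described, had -0.09 ± 0.09 (adjusted p = 0.685). Cacng8, which encodes the TARP that prevails in hippocampus, had 10.50 and 10.36 after ECS, against 10.43 and 10.46 after sham, so that ECS 1 was the highest and ECS 2 the lowest of the arrays. Cacng7, measured by 1 probeset, had -0.06 and Cacng4 had 0.01. The kainate partners Neto1 and Neto2 had -0.05 and -0.06, with overlapping arrays. Of the 9 auxiliary genes 7 were below 0 as deposited, 7 after quantile normalization and 3 with centred arrays.

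The MAGUK scaffolds were level apart from Dlg1. Dlg4, the gene of the core postsynaptic density scaffold PSD-95, had 11.51 and 11.48 after ECS, against 11.50 and 11.55 after sham, a difference of -0.03 ± 0.09 (95% interval -0.26 to 0.19, adjusted p = 0.891). Dlg3 and Dlg2 had -0.01 and -0.05, also with overlapping arrays. Dlg1, which encodes a MAGUK that binds AMPA receptors on their way to the membrane, had 9.76 and 9.77 after ECS, against 9.50 and 9.62 after sham. Both ECS arrays exceeded both sham arrays and the difference was 0.21 ± 0.09 (adjusted p = 0.338). With arrays centred on their medians all 4 MAGUK genes lay above 0, against 1 of 4 as deposited, so the sign of Dlg2, Dlg3 and Dlg4 rests on the scaling.

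The SAPAP genes, Dlgap1 to Dlgap4, encode the linkers between MAGUK and SHANK proteins. Dlgap4 read 9.08 on ECS 1 and 8.98 on ECS 2, against 8.50 on sham 1 and 8.68 on sham 2. Dlgap2 read 9.53 and 9.49 after ECS, against 9.19 and 9.14 after sham. In both genes the ECS arrays were clear of the sham arrays, and the Dlgap2 arrays of a group agreed closely. Their differences were 0.44 ± 0.11 (95% interval 0.17 to 0.71), or 1.36-fold, for Dlgap4 and 0.35 ± 0.09 (95% interval 0.12 to 0.57), or 1.27-fold, for Dlgap2. Neither passed limma's test (adjusted p = 0.154 and 0.170), while trend and robust moderation gave both an adjusted p under 0.05 (0.0487 for Dlgap4 and 0.0475 for Dlgap2). That setting called 717 of all 18010 genes, against 125 in the main fit.

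Dlgap3 had 9.12 and 9.31 after ECS, against 8.96 and 9.02 after sham, again without overlap, and a difference of 0.22 ± 0.10 (adjusted p = 0.359). Dlgap1 differed from these in that its arrays overlapped, with 10.95 and 10.88 after ECS, against 10.77 and 10.98 after sham (0.04 ± 0.11, adjusted p = 0.880). All 4 SAPAP genes were above 0 as deposited, after quantile normalization and with arrays centred, with a median of 0.28 as deposited. The SHANK genes, whose products bind SAPAP from the cytoplasmic side, stayed level: Shank2 had -0.03 and Shank3 had -0.06, with overlapping arrays. Both lay above 0 with centred arrays.

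The promoter of Dlgap4, the gene with the highest difference in the list, has the same extent, at chr2:156720715-156721014 on the plus strand. Capitals mark the letters of 1 EGR motif (GCGNGGGCG) and 1 CRE core (TGACG), searched on both strands.
Dlgap4: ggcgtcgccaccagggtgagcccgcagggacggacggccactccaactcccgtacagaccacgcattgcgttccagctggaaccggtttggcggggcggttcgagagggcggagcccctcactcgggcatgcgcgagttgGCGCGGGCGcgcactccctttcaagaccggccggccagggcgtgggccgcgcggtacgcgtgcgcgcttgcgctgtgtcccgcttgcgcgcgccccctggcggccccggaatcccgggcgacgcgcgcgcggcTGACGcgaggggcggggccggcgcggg

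Promoters were available for 28 of the genes, with 42 starts between them. They were searched because the named motifs bind factors that neuronal activity is known to engage. The CRE core occurred in Dlg3, Dlg4, Dlgap4, Grik2, Grin1 and Grm8, at 6 of the 42 starts, and in 20.8% of all 32851 promoters. The EGR motif occurred in Dlgap4, Gria4, Grin1, Grm3 and Shank3, at 5 of the 42 starts, and in 5.55% of all. The AP-1 motif (TGANTCA) occurred in Cacng5 and Grm8, at 2 of the 42 starts (7.81% of all). The full CRE (TGACGTCA), which contains the core, occurred in none of the 28 genes (1.79% of all). Both printed promoters are rich in G and C, at 82% for Grik3 and 76.3% for Dlgap4, with 50 CpG each. The medians of all promoters were 52.7% and 7 CpG. A match is only a run of letters. The motif sets held genes on both sides of 0: Dlgap4 and Grin1 were above it and Grm3, Gria4 and Shank3 below it.

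Each gene value averages several probesets, and these can be read one by one. The genes have 653 probesets, 627 of them in the values above, and these included 0 with an adjusted p under 0.05 in limma (lowest 0.389), as did all 229712 probesets listed for a transcript (0%). At an unadjusted p under 0.05 there were 46, which is 7.04% against 10.2% of all probesets, 21 of them higher (4.25% of all probesets were) and 25 lower (5.92% of all were). Grik3 held 14 of the 46 and Dlgap4 11. Probesets of a gene share the same arrays and are not replicates, so their agreement describes the breadth of a difference along the transcript and not its repeatability.

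In Grik3 all 22 probesets had a difference below 0, ranging from -1.24 to -0.18, and in 20 of them both ECS arrays lay below both sham arrays. Its lowest, probeset 4934536, had 6.60 and 6.80 after ECS, against 8.05 and 7.83 after sham. In Dlgap4 all 26 probesets behind the value were above 0, from 0.05 to 1.63, 23 of them without overlap. In Dlgap2 all 19 were above 0, from 0.10 to 1.04, 16 without overlap. The differences of these genes were thus spread over their probesets rather than carried by a few of them. These genes lie at the ends of the list by the mean of these same probesets, so one-sided counts were partly fixed by that choice.

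Some smaller differences were also spread over the probesets of their gene. All 21 Gria3 probesets were below 0, 18 without overlap, and 22 of 24 in Gria1, 20 without overlap. In Grm5, 17 of 18 were below 0, in Grm3 all 9 and in Grin3a 13 of 14, with 14, 7 and 9 without overlap in that direction. Of the 31 Dlg1 probesets 30 were above 0, 16 without overlap, and of the 19 in Dlgap3 16 were above 0, 10 without overlap. All 11 Grin2a probesets were above 0, 5 without overlap. Dlgap1 was split, with 7 below and 7 above. Of all probesets listed for a transcript 56.3% were below 0. The share of all probesets without overlap was not counted. The counts without overlap, for these genes and for Grik3, Dlgap4 and Dlgap2, therefore have no such share beside them.

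**Figure D3:**
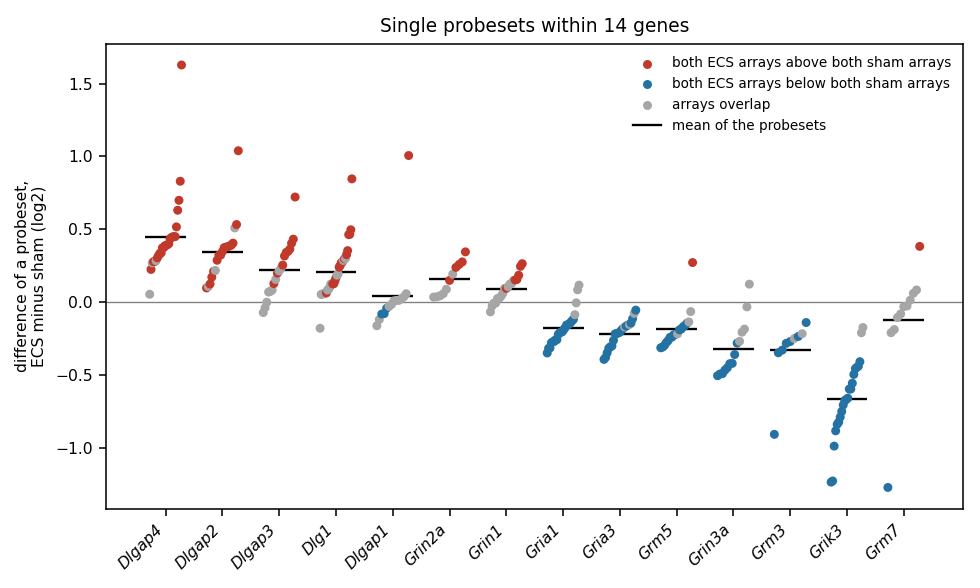
Differences of single probesets, ECS minus sham in log2 units (vertical axis), in 14 genes ordered by group of direction (horizontal axis); black bars are the means of the probesets. All Dlgap4 and Dlgap2 points lie above 0 and all Grik3, Grm3 and Gria3 points lie below it, and single points stand apart in Dlgap4 (1.63), Dlgap1 (1.01) and Grm7 (-1.27).

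Single probesets that left the rest of their gene were looked for with limma's diffSplice, which tests a probeset against the others of its gene and pools the spread within the gene. It called 6 of 651 tested probesets, while it called 728 of 224792 (0.324%) over all genes. The share was thus higher among the genes described. Probeset 5439303 of Dlgap4 had 4.66 and 3.63 after ECS, against 2.57 and 2.47 after sham, a departure of 1.25 (adjusted p = 0.000725). Probeset 5019147 of Grm7 had 3.06 and 2.96 after ECS, against 4.00 and 4.57 after sham, a departure of -1.26 (adjusted p = 0.00195). Both carried low values, and both had ECS arrays clear of the sham arrays.

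Brighter ones were probeset 5122527 of Dlgap2, with 7.99 and 8.08 after ECS, against 6.93 and 7.06 after sham (departure 0.73, adjusted p = 0.0236), and probeset 4436405 of Dlg1, with 9.90 and 9.92 after ECS, against 9.11 and 9.01 after sham (departure 0.66, adjusted p = 0.0451). The arrays of a group agreed well in these. The remaining calls, probeset 4587232 of Dlgap1 (departure 1.04, adjusted p = 0.0131) and probeset 4815974 of Grik2 (departure -1.36, adjusted p = 0.0316), rested on widely scattered arrays: Dlgap1 had 5.24 and 5.04 after ECS, against 3.40 and 4.87 after sham, and Grik2 had 5.04 and 3.05 after ECS, against 5.33 and 5.76 after sham. With each probeset tested against its own spread instead, limma called none of the 651, and 12 (1.84%, against 5.66% of all) had an unadjusted p under 0.05. The number that diffSplice called was lower whenever an array was left out. The test on own spread was not repeated in that way.

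Transcript forms could be compared where a gene had probesets outside the ones in its value. For Dlgap4, 8 such probesets, found only in a longer listed transcript, had a mean of 8.44 and 8.60 after ECS, against 8.14 and 8.27 after sham, with a difference of 0.32 beside 0.44 for the others. Both sets of Dlgap4 probesets were therefore higher on both ECS arrays. The 6 outside probesets of Gria2 had -0.13 beside -0.06, the 4 of Shank2 had 0.04 beside -0.03, and the 8 of Dlgap1 had -0.04 beside 0.04. These were not tested against each other. The alternative exons that distinguish flip and flop forms of AMPA subunits were not identified, since probeset positions were not used here.

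The difference of each gene was followed with 1 array left out at a time. Grik3 kept a range of -0.81 to -0.52, Dlgap4 of 0.36 to 0.53 and Dlgap2 of 0.32 to 0.37. Grm3 ran from -0.42 to -0.25 and Grin3a from -0.38 to -0.26. None of these turned sign. Across all 40 genes, 37 kept their sign without ECS 1, 29 without ECS 2, 37 without sham 1 and 31 without sham 2. In these 4 fits limma called 0 of the 40, and of all 18010 genes it called 7 without sham 1 and 0 in each of the others, so these counts say little about the genes described.

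**Figure D4:**
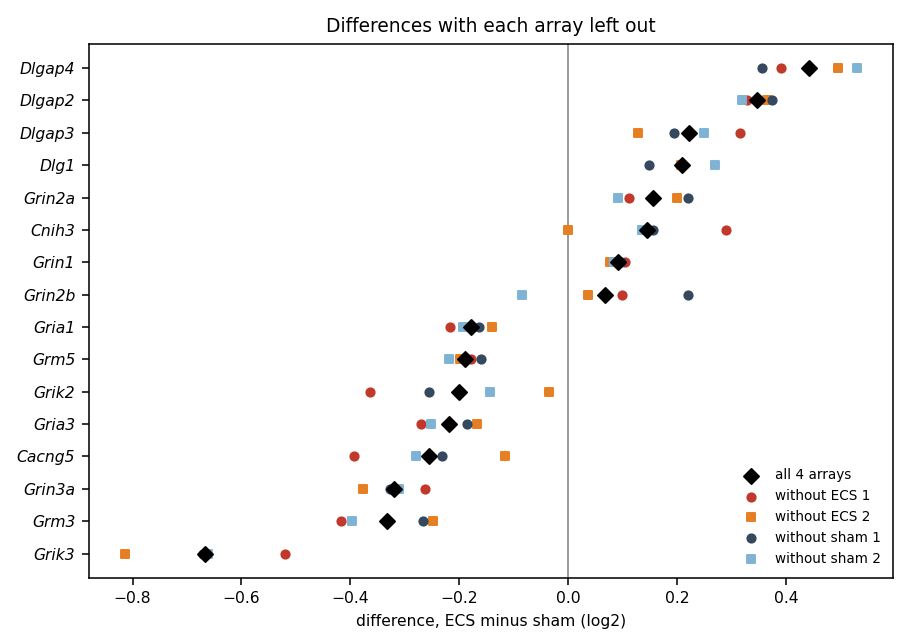
Difference, ECS minus sham in log2 units (horizontal axis), of the 8 highest and 8 lowest genes with all 4 arrays (diamonds) and with each array left out (coloured points). Grik3 spreads from -0.81 to -0.52 and Dlgap4 from 0.36 to 0.53, while Grin2b crosses 0 without sham 2 and Cnih3 lies at 0 without ECS 2.

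A list of other genes, drawn up as partners for excitatory synapses, gives a scale for these values. Of its 59 genes, called partner genes here, 58 were measured. In limma 4 passed higher (0.5% of all genes did), 0 passed lower (0.194% of all did) and 54 did not pass. At an unadjusted p under 0.05 there were 10 higher (6.39% of all genes were) and 12 lower (10.5% of all were). Nptx2, which encodes a secreted pentraxin that clusters AMPA receptors, rose by 2.06 (adjusted p = 0.0154). Homer1, whose transcript forms were not told apart here, rose by 1.72 (adjusted p = 0.0125). Arc, which promotes AMPA receptor endocytosis, rose by 1.38 (adjusted p = 0.0135). Tanc1, a postsynaptic density scaffold gene, read 10.10 and 10.15 after ECS, against 9.29 and 9.34 after sham, and rose by 0.82 (adjusted p = 0.0399).

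Of the lowest partner genes, Shisa9 and Lrrtm1 had differences below that of Grik3. Shisa9 encodes an AMPA receptor auxiliary protein known from dentate granule cells. It had 7.93 and 8.02 after ECS, against 8.79 and 9.04 after sham, a difference of -0.94 ± 0.12 (adjusted p = 0.0555). The postsynaptic adhesion gene Lrrtm1 had 8.52 and 8.52 after ECS, against 9.07 and 9.34 after sham (-0.69 ± 0.12, adjusted p = 0.0976). The secreted synaptic organiser gene C1ql3 had 9.08 and 9.32 after ECS, against 9.78 and 9.91 after sham (-0.65 ± 0.12, adjusted p = 0.104), and Lrrtm3 had -0.55 ± 0.15 (adjusted p = 0.180). All of these had ECS arrays clear below sham arrays without passing the test. Both ECS arrays lay below both sham arrays in 30 of the 58 partner genes (51.7%, against 30.7% of all genes) and above in 15 (25.9%, against 18.7% of all genes), with a median difference of -0.11. With centred arrays 20 lay below (34.5%, against 20.3% of all genes) and 17 above (29.3%, against 28.8%), with a median of -0.04.

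**Figure D5:**
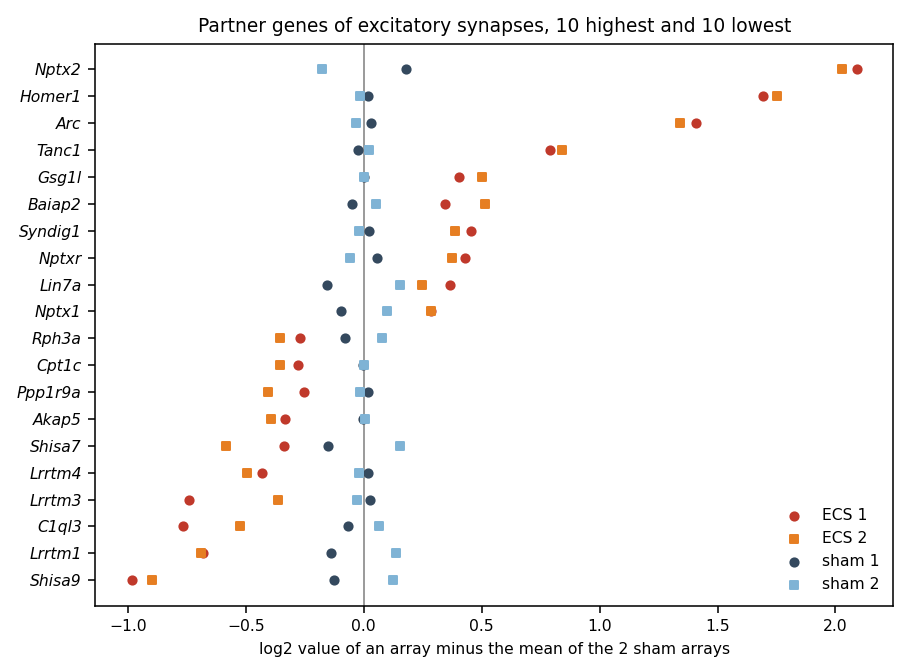
The 10 highest and 10 lowest partner genes, as log2 value minus the mean of the 2 sham arrays (horizontal axis), 1 point per array. Nptx2, Homer1, Arc and Tanc1, the genes that passed the test, stand at the top, and Shisa9, at -0.94, is at the bottom.

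Markers of cell types were read on the same arrays. Of 8 granule cell markers 7 were measured and their log2 values summed to 64.2 and 64.7 on the ECS arrays, against 66.8 and 67.3 on the sham arrays. Dsp fell by 1.37 (adjusted p = 0.0195), and the other 6 did not pass, among them Lct at -0.62, Calb1 at -0.52 and Prox1 at 0.22. In 4 of the 7 both ECS arrays lay below both sham arrays, against 30.7% of all genes. Choroid plexus markers, 8 of 8 measured and none passing, summed to 48.8 and 46.2 on the ECS arrays, against 47.2 and 58.4 on the sham arrays. Every one of these markers read highest on sham 2. Ttr did so by most, with 6.55 and 5.90 on the ECS arrays, against 6.12 and 10.2 on the sham arrays. Clic6 read 4.88 and 4.25 on the ECS arrays, against 4.75 and 7.15 on the sham arrays. The median of the list was 6.14 and 5.78 on the ECS arrays, against 5.79 and 6.97 on the sham arrays. Without sham 2, Grik3 had -0.66 (-0.67 with all arrays), Grm3 -0.40 (-0.33), Grin3a -0.31 (-0.32), Dlgap2 0.32 (0.35) and Dlgap4 0.53 (0.44). The part of the granule cell and choroid plexus markers in these values was not tested.

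The sums of the other marker lists differed less between groups, and none of their genes passed. A sum can hide a single marker. The microglia marker P2ry12 had 8.33 and 8.26 after ECS, against 9.02 and 8.86 after sham (-0.64, adjusted p = 0.0845 in limma). Of the 5 measured microglia markers 4 were below 0 and 1 above. The 8 oligodendrocyte markers summed to 75.6 and 71.9 after ECS, against 73.3 and 71.6 after sham, highest on ECS 1. The 7 astrocyte markers summed to 68.3 and 68.5 after ECS, against 68.0 and 68.4 after sham. The 9 markers of mossy cells and interneurons summed to 76.3 and 76.7 after ECS, against 77.0 and 76.3 after sham. The 8 measured pyramidal cell markers summed to 66.3 and 65.3 after ECS, against 66.8 and 65.3 after sham. Microglia markers, 5 of 6 measured, summed to 36.3 and 35.1 after ECS, against 37.2 and 35.9 after sham, and endothelial and mural markers, 5 of 6, to 39.1 and 38.0 after ECS, against 38.6 and 39.3 after sham. No marker was listed at 0.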

How the data were processed

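RNA of dentate gyrus from 2 ECS and 2 sham arrays was compared. The authors deposited log2 values per probeset and log2 values averaged per RefSeq transcript. RMA and the oligo package are named in the submitters' processing notes. RMA corrects background, normalizes quantiles and summarises probes. Versions and genome build are not given in the sources used here.

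The averaged table has 26106 transcripts, of which 3621 have no probeset and are listed at 0; these were left out. In the other 22485 the values equalled the means of the value table's probesets within 1e-06, and this equality tied each averaged column to a labelled array. The columns named for 0 h hold the sham arrays. RefSeq identifiers were matched to the RefSeq table of GRCm38.p6 (24932 of 25635). The transcript with the highest mean stood for a gene, which gave 18010 genes. Of the 40 genes described, only Grin3a has a probeset listed for another gene too, 1 of 14.

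ECS was compared with sham in limma 3.58.1 in R 4.3.3 with lmFit and eBayes (two-sided tests without a block), with Benjamini-Hochberg adjustment over all genes at 0.05. Precision is limited by the number of arrays, with 2 residual and 3.23 prior degrees of freedom. Probesets were fitted likewise over 229712 probesets, and with diffSplice over the 224792 listed for 1 gene with at least another such probeset. The fits were checked on simulated data, where diffSplice made many false calls once probesets differed in spread. Alternatives were quantile normalization, centring of arrays on their medians, leaving out single arrays or dim genes, other transcript choices, probesets of 1 gene only, trend and robust moderation, and a replicate block. The crossed block and the test on own spread were chosen after seeing the data. The genes, the partner list and the marker lists were chosen with earlier results of these data known. C1ql2 and Nptx1 are each in the partner list and in a marker list. Named are all genes of the list, the 4 highest and 4 lowest partners, and probesets past a threshold or at the end of a gene's range. A planned search of protein ends was not run.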

Additional observations from a re-analysis of the deposited data

How the results depend on the processing

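Of 252 results, 21 genes under 12 settings, 238 kept their direction and side of the threshold. Part of this count was fixed beforehand. Leaving out dim genes, trend and robust moderation and the replicate block change the test of a gene but not its difference. Most of the 21 genes were also picked for the size of their differences. None of the 40 genes was called, against 1 (Grik3) without the dimmest 25% of genes and 3 (Grik3, Dlgap2 and Dlgap4) with trend and robust moderation; both settings also called more genes overall (458 and 717, against 125). The count was 0 under quantile normalization, centring, other transcript choices and probesets of 1 gene only, and 0 in each fit without an array, where at most 7 genes were called overall. With the labels' replicate numbers as a replicate block 0 of the 40 and 32 genes overall were called. The labels do not state if same-numbered arrays belong together. Deviations of same-numbered arrays correlated at -0.203, which cannot decide this with 2 arrays in a group. A crossed block gave 0 of the 40 and 154 overall. Genes at least 1.5-fold apart numbered 1, and 0 to 1 without an array. The median difference was -0.05, with -0.0854 to -0.0077 without an array, and 0.0225 with arrays centred on their medians. Of the 40 genes 27 kept their sign under centring, 29 without ECS 2 and 31 without sham 2, and the names that follow are only those among the 21 genes. Centring turned the sign of Gria2 (0.0117), Shank3 (0.0155), Dlg2 (0.0230) and Grik5 (0.0546). Among the same 21, leaving out ECS 2 turned Shank3, Dlg2, Grik5 and Cnih3, and leaving out sham 2 turned Grik5 and Grin2b. Without an array Shank3 ran from -0.115 to 0.0018, Dlg2 from -0.138 to 0.0399, Grik5 from -0.0982 to 0.0633, Grin2b from -0.0843 to 0.220 and Cnih3 from -0.00013 to 0.290. Probesets called apart from their gene by diffSplice numbered 6, and 2 without the dimmest 25% of probesets, 1 to 5 without an array, 1 with a replicate block and 0 with each probeset's own spread. The adjusted p of Grik3 ran from 0.0307 to 0.267 over all settings, of Dlgap4 from 0.0487 to 0.339 and of Dlgap2 from 0.0475 to 0.407. Beyond fewer arrays or genes tested, the cause of these changes was not tested. Signal over background was not measured.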
